A study of Rattus norvegicus with 48 samples.

Results

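The genes described here are clock output factors and a few of their targets in rat liver after ischemia and reperfusion. They were taken by gene symbol: the PAR bZIP activators Dbp, Tef and Hlf, their opposing repressor Nfil3, the nuclear receptors Nr1d1 and Nr1d2, and the targets Upp2, Usp2, Por and Alas1. Of these 10 genes 9 were measured, among 14506 genes with 1 symbol on the array; Hlf matched no probe set. Each of the 9 had a single probe set.

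Liver RNA of 48 male Wistar rats was hybridised to Affymetrix arrays, 1 array per animal. The 10 IPO rats (ischemic postconditioning) had 30 min of total liver ischemia, then 3 cycles of 30 sec with flow and 30 sec without, and 30 min of reperfusion. The 10 IPC+IPO rats had the same cycles and, ahead of the long ischemia, 10 min without flow and 10 min with flow restored. The 10 IPC rats (ischemic preconditioning) had only that earlier episode beside the long ischemia and 30 min of reperfusion, and the 10 IRI rats (ischemia and reperfusion injury) had the long ischemia and 30 min of reperfusion alone. The 8 Sham rats had no ischemia. All 5 groups shared the anaesthesia with fentanyl, fluanisone and midazolam, the midline laparotomy, free access to food and a 12-hour light-dark cycle, and the biopsies came from the right lobe. The labels give no age and neither the hour of the operation nor that of the biopsy, and IPC and IPC+IPO rats had the longer procedure. The hepatocyte markers Alb, Apoa1, Ttr, Serpina1, Cyp2e1 and Tat averaged 11.79 to 12.48 on the log2 scale in every animal, near the top of the array's range of 1.944 to 13.518.

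In liver the circadian clock is a loop in which BMAL1 and CLOCK activate genes through E-box sequences, among them Dbp, Tef and the REV-ERB genes Nr1d1 and Nr1d2. REV-ERB proteins bind ROR elements and repress Bmal1 and Nfil3, so that Bmal1 and its output factors peak at opposite times of day. The PAR bZIP proteins DBP, TEF and HLF activate, and NFIL3 represses, genes with a D-box, and in mouse liver they set the daily rhythm of detoxification genes such as Por and Alas1.

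The start regions of the members were searched for these sequences. RefSeq (assembly GRCr8) gave 10 windows for the 9 measured members, each from 250 bases before to 50 bases after a start site; Nr1d1 had 2 windows. An E-box (CACGTG) was found in Tef and in one window of Nr1d1, against 6.42% of all 33469 such windows. A ROR half-site (TAGGTCA or TGGGTCA, both strands) was found in Por and, outside the members, in Bmal1, against 6.6% of all windows. No member window held a D-box (TTATGTAA or TTACGTAA, both strands), which 1.01% of all windows did; this says only that these letters are not in these windows. The E-box windows of Tef and Nr1d1 and the ROR half-site window of Bmal1 are shown because the results below set the members against Bmal1. The match is in capitals, and it is a match of letters, not a measured site. The Tef window is chr7:115206577-115206876 (plus strand), that of Nr1d1 chr10:84229405-84229704 (minus strand) and that of Bmal1 chr1:176766078-176766377 (plus strand). Counted from the start site, the matches begin at base -198 in Tef, -191 in Nr1d1 and -16 in Bmal1.
Tef: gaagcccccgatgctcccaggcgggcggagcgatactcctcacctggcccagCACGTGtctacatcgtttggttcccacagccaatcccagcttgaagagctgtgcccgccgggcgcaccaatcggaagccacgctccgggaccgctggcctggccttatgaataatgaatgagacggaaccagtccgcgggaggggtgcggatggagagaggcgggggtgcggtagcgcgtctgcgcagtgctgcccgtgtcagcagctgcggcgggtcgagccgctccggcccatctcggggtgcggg
Nr1d1: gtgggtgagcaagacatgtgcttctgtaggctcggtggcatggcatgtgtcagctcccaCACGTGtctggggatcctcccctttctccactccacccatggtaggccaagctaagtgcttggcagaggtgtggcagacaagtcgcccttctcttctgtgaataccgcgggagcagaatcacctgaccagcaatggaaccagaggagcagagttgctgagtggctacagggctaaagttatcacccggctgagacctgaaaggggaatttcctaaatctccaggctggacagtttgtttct
Bmal1: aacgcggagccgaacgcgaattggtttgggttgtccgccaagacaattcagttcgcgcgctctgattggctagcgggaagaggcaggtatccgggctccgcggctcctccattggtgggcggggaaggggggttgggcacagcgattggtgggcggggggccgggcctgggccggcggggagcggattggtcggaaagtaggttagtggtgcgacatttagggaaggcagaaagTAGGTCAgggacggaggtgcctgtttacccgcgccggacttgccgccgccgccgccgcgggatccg

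The values are deposited log2 expression values, and a difference of 1 is a doubling. In whole liver tissue, a change in the number of cells of a type cannot be told apart from a change in RNA per cell. The 5 groups were compared with limma over all 14506 genes, two-sided, with Benjamini-Hochberg adjustment, and a gene passed at an adjusted p under 0.05. The members were selected on the values of IPO against IRI and of IPO against IPC+IPO, which were known when the list was drawn up. Those comparisons are therefore given as description, without p-values. Every other comparison that uses IPO, IRI or IPC+IPO animals shares animals with them and is not independent of them. The p-values of single members in such comparisons carry this limit. Nfil3 rose against Sham in all 3 intervention groups, and IPO was the group in which most members, and most of all genes, passed against Sham.

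**Figure D1:**
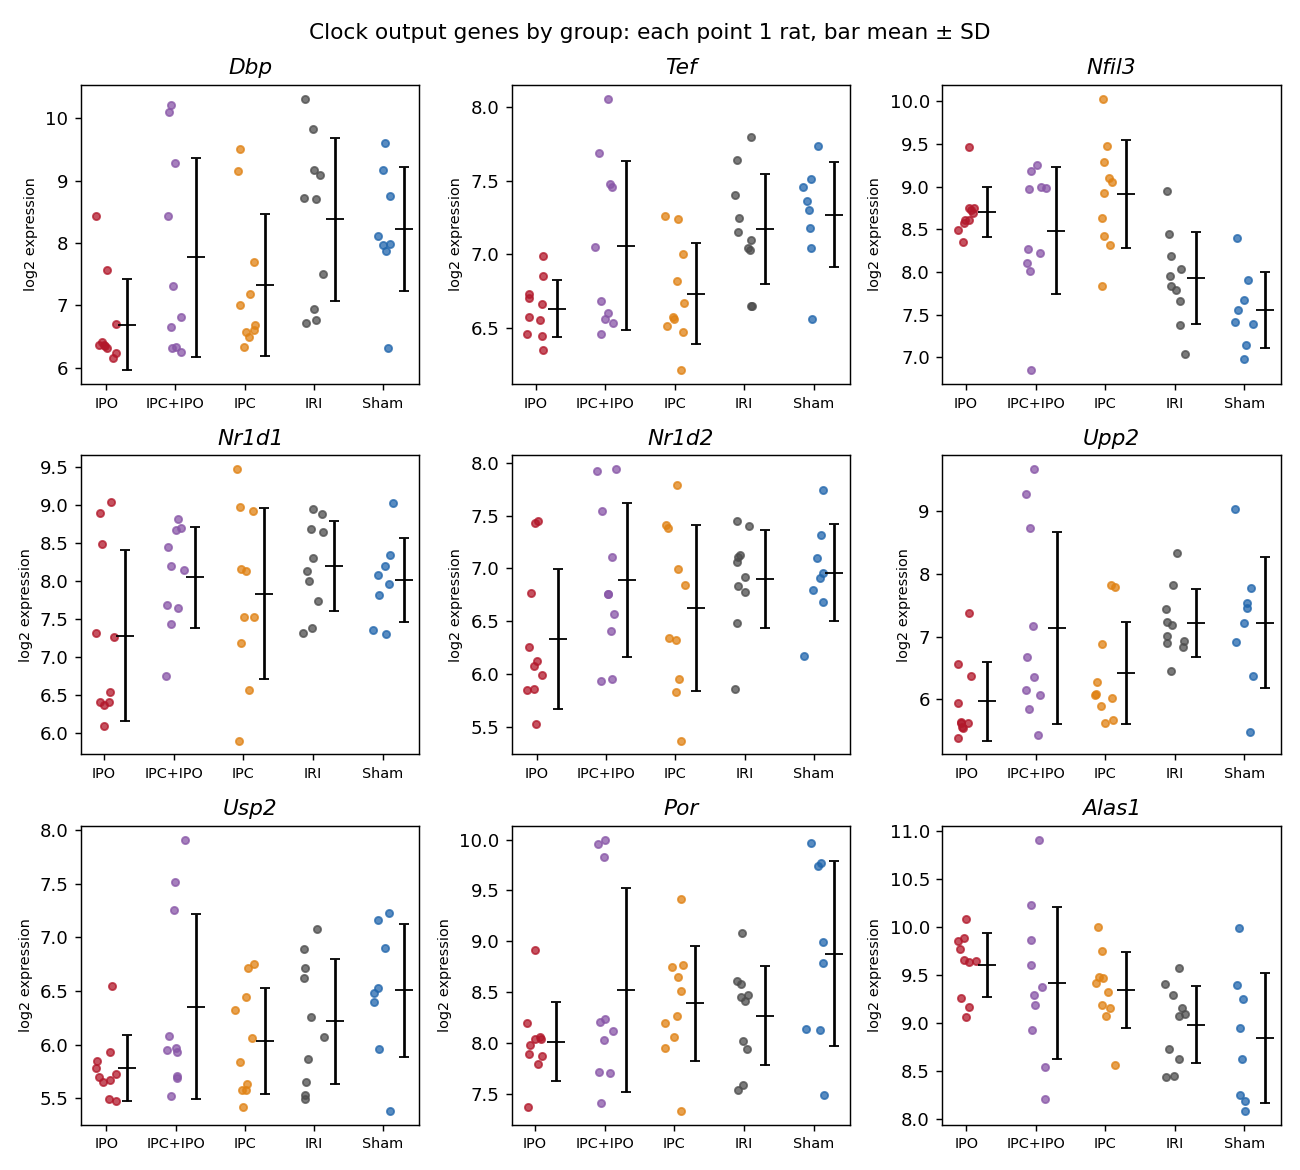
Log2 expression of the 9 measured members (vertical axis of each panel) in the IPO, IPC+IPO, IPC, IRI and Sham groups; each point is 1 rat, and the bars are the mean and SD of the group. IPO has the lowest mean of Dbp, Tef, Nr1d1, Nr1d2, Upp2, Usp2 and Por, and the groups overlap in every panel.

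Postconditioned livers were compared with livers that had no ischemia. In IPO livers the activators Dbp and Tef and the targets Upp2, Usp2 and Por fell, while the repressor Nfil3 and the heme synthesis gene Alas1 rose. In all 7 of the 9 members passed, 5 lower and 2 higher, where 23.2% of all genes did (7.76% lower and 15.4% higher). The median difference over the members was -0.72, against 0.00 over all genes. The values of these same IPO animals were used to select the members, so nothing is read from this count or this median. The adjusted p-values of single members in this comparison, given below, carry the same limit and are a description too. With array spread, the SD of an array's log2 values, as a covariate 0 members passed, and several of the calls rested on single animals, as described after the members.

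Dbp, a PAR bZIP activator and one of the most strongly cycling transcripts of liver, had the largest difference from Sham in IPO among the members. It ran from 6.16 to 8.43 in IPO (median 6.36), from 6.25 to 10.22 in IPC+IPO (median 7.07), from 6.34 to 9.51 in IPC (median 6.85), from 6.71 to 10.32 in IRI (median 8.72) and from 6.32 to 9.61 in Sham (median 8.05). Most IPO livers lay low, with animals 29 and 30 at 7.57 and 8.43 above the rest; 3 IPO livers lay below every Sham liver. Sham animal 48, at 6.32, stood among the IPO values while the other Sham livers started at 7.87. Dbp fell by 1.53 ± 0.54 (SE) in IPO against Sham (2.89-fold lower, limma adjusted p = 0.0347). Its differences from Sham in IPC+IPO, IPC and IRI were -0.45 ± 0.54, -0.90 ± 0.54 and 0.16 ± 0.54, none past the threshold.

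Tef, the second activator of this family, had the narrowest spread of the members. It ran from 6.35 to 6.99 in IPO (median 6.61), from 6.46 to 8.06 in IPC+IPO (median 6.86), from 6.21 to 7.26 in IPC (median 6.62), from 6.65 to 7.80 in IRI (median 7.12) and from 6.56 to 7.74 in Sham (median 7.33). All but 1 Sham liver, animal 48, lay above every IPO liver. Tef fell by 0.64 ± 0.18 in IPO against Sham (1.56-fold lower, limma adjusted p = 0.0128), and it passed in all 48 fits that left out 1 array. In IPC it was at -0.54 ± 0.18 (limma adjusted p = 0.0572).

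Nfil3, which codes for the repressor that competes with DBP and TEF for the D-box, moved the other way. Its values were 8.35 to 9.46 in IPO (median 8.65), 6.85 to 9.25 in IPC+IPO (median 8.62), 7.84 to 10.03 in IPC (median 8.98), 7.04 to 8.95 in IRI (median 7.89) and 6.98 to 8.40 in Sham (median 7.48). Of the 10 livers of each group, 9 in IPO, 5 in IPC+IPO, 8 in IPC and 2 in IRI lay above every Sham liver. IPC+IPO held 1 liver, animal 37 at 6.85, below all Sham livers. Nfil3 rose by 1.14 ± 0.25 in IPO (2.21-fold, limma adjusted p = 0.00399).

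The REV-ERB genes did not pass in any comparison. Nr1d1 ran from 6.10 to 9.04 in IPO (median 6.90), from 6.75 to 8.81 in IPC+IPO (median 8.17), from 5.90 to 9.47 in IPC (median 7.83), from 7.31 to 8.94 in IRI (median 8.22) and from 7.30 to 9.02 in Sham (median 8.02). Of the 10 IPO livers 6 lay below every Sham liver, yet animal 30 was above all of them. The difference of IPO from Sham was -0.73 ± 0.39 for Nr1d1 (limma adjusted p = 0.147) and -0.63 ± 0.29 for Nr1d2 (limma adjusted p = 0.0984). Nr1d2 ran from 5.53 to 7.45 in IPO (median 6.10), against 6.17 to 7.74 in Sham (median 6.93), with 6 IPO livers below every Sham liver. Its medians in IPC+IPO, IPC and IRI were 6.76, 6.59 and 6.99.

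Among the targets, Upp2, a liver uridine phosphorylase, ran from 5.39 to 7.38 in IPO (median 5.64), from 5.43 to 9.66 in IPC+IPO (median 6.52), from 5.63 to 7.82 in IPC (median 6.08), from 6.45 to 8.33 in IRI (median 7.10) and from 5.49 to 9.02 in Sham (median 7.33). IPC+IPO held the widest range, with animals 37 and 40 at 9.26 and 9.66. Upp2 fell by 1.26 ± 0.43 in IPO against Sham (2.39-fold lower, limma adjusted p = 0.0332). Usp2, a deubiquitinating enzyme, ran from 5.48 to 6.55 in IPO (median 5.72), against 5.38 to 7.23 in Sham (median 6.51), and fell by 0.72 ± 0.27 (limma adjusted p = 0.0467). No IPO liver lay below the lowest Sham liver, which was again animal 48, and 3 Sham livers lay above every IPO liver. Its medians in IPC+IPO, IPC and IRI were 5.96, 5.95 and 6.16.

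Por, the electron donor of the microsomal cytochromes P450, ran from 7.37 to 8.91 in IPO (median 8.01), from 7.41 to 10.00 in IPC+IPO (median 8.17), from 7.33 to 9.42 in IPC (median 8.39), from 7.54 to 9.08 in IRI (median 8.43) and from 7.49 to 9.97 in Sham (median 8.89). It fell by 0.87 ± 0.32 in IPO (1.82-fold lower, limma adjusted p = 0.0422), with 4 Sham livers above every IPO liver. In IRI it was at -0.61 ± 0.32 (limma adjusted p = 0.464). Alas1, the rate-limiting enzyme of heme synthesis, went against the other targets. It ran from 9.06 to 10.08 in IPO (median 9.66), from 8.21 to 10.91 in IPC+IPO (median 9.33), from 8.56 to 10.00 in IPC (median 9.37), from 8.44 to 9.57 in IRI (median 9.08) and from 8.08 to 9.99 in Sham (median 8.79). Alas1 rose by 0.76 ± 0.25 in IPO (1.69-fold, limma adjusted p = 0.0254), but 1 IPO liver alone exceeded the highest Sham liver. With array spread as a covariate Alas1 was at 0.30 ± 0.24 and did not pass, and without the 14 arrays of lowest spread it was at -0.03 ± 0.34.

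The count of 7 rested on many of the arrays. It was 2 without Sham animal 45, 3 without any of IPO animals 21, 22, 26 and 27 or Sham animals 41, 42, 44 and 46, and 4 without IPO animals 23 or 28 or Sham animal 43. Calls over all genes moved as well: 3364 of 14506 passed with every array, 1884 without Sham animal 45, 1789 to 2801 in the fits that gave 3 members, and 2473, 2578 and 5572 in those that gave 4. The differences themselves kept their sign in all 48 fits: that of Dbp lay between -1.81 and -1.34, that of Upp2 between -1.5 and -1.0, that of Usp2 between -0.88 and -0.62, that of Por between -1.06 and -0.71 and that of Alas1 between 0.65 and 0.92. Nfil3 and Tef passed in each of these fits, at 1.06 to 1.26 and -0.74 to -0.57.

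**Figure D2:**
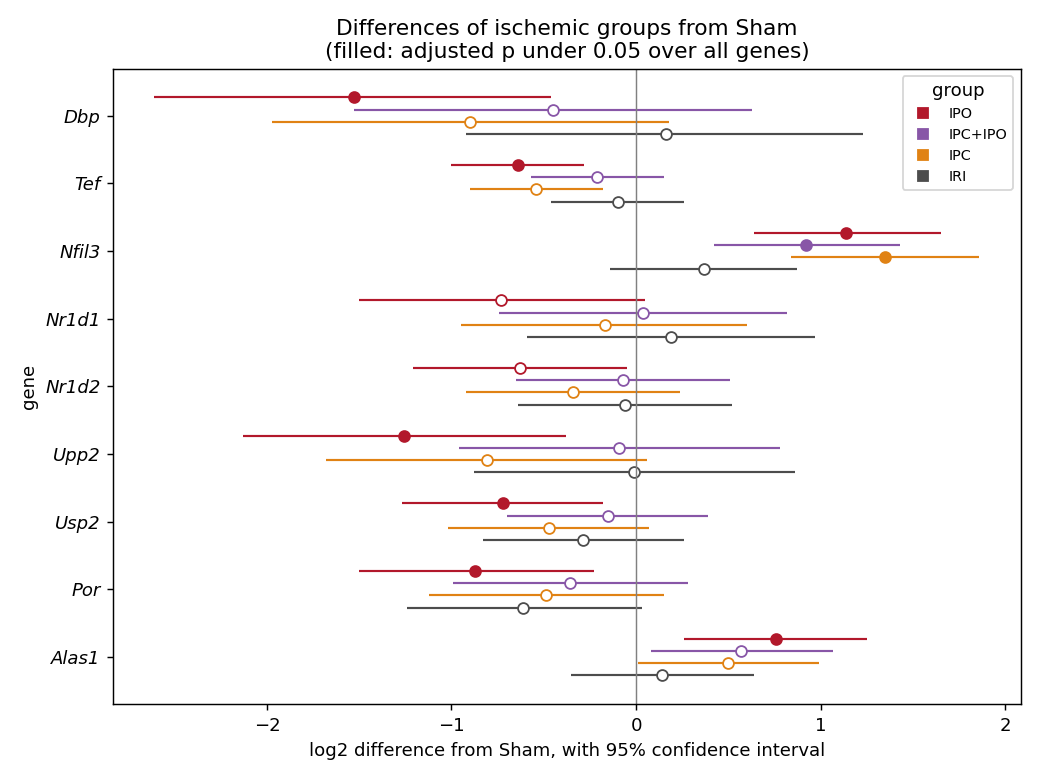
Log2 difference from Sham (horizontal axis, with 95% confidence intervals) of the 9 members (vertical axis) in IPO, IPC+IPO, IPC and IRI; filled points passed an adjusted p under 0.05 over all genes and open points did not. Nfil3 is filled in 3 groups, at 1.14, 0.92 and 1.35, and Dbp, Tef, Upp2, Usp2, Por and Alas1 in IPO alone; differences between groups are tested elsewhere in the text.

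Genes that work with the members were counted in the same comparison of IPO with Sham, in which 15.4% of all genes rose and 7.76% fell. Of 16 core clock genes 12 were measured, and 4 rose: Bmal1 by 1.46 ± 0.35, its partner Clock by 0.91 ± 0.27, the paralog of Clock, Npas2, by 0.65 ± 0.21 and the kinase gene Csnk1d by 0.50 ± 0.15. None of the 12 fell, and their median was 0.27. Of 6 measured genes known as REV-ERB-repressed 4 rose, the same Bmal1, Clock and Npas2 with Insig2, a brake on cholesterol synthesis, at 1.33 ± 0.26; the list's median was 0.78. Per3, which peaks near Dbp in liver, was at -0.73 ± 0.29 (limma adjusted p = 0.0539).

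Among other known targets of the PAR bZIP factors 1 of 7 measured passed: Cyp7a1, the rate-limiting enzyme of bile acid synthesis, fell by 1.14 ± 0.38, where 23.2% of all genes passed, and the list's median was 0.05. Of 9 measured genes of heme synthesis and breakdown 5 rose and none fell, with a median of 0.36, against the same 15.4% and 7.76% of all genes. They were Hmox1, which degrades heme, at 1.04 ± 0.21, the biliverdin reductase gene Blvrb at 0.56 ± 0.21, and the synthesis genes Ppox, Urod and Alad at 0.74 ± 0.19, 0.60 ± 0.17 and 0.36 ± 0.12. The 8 glucocorticoid-induced genes include Per1, which is also counted among the core clock genes. Of the 8, Dusp1 and Sgk1 rose by 1.40 ± 0.33 and 1.0 ± 0.32 and the median was -0.05. Thus 2 of 8 passed where 23.2% of all genes did.

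In IPC livers, compared with Sham, Nfil3 alone of the members passed. It rose by 1.35 ± 0.25 (2.55-fold, limma adjusted p = 0.00161), in a comparison in which 6.58% of all genes passed, and it passed in all 48 fits with an array left out, at 1.23 to 1.47. Without the 14 arrays of lowest spread, which leaves 9 IPC and 2 Sham arrays, Nfil3 was at 0.75 ± 0.36 and did not pass. Dbp, Upp2 and Usp2 were at -0.90 ± 0.54, -0.81 ± 0.43 and -0.47 ± 0.27 and Alas1 at 0.50 ± 0.25, with limma adjusted p values of 0.307, 0.248, 0.282 and 0.204. The count of members was 2 without IPC animals 18, 19 or 20, IPC+IPO animals 38 or 40 or Sham animal 48. In those fits 586 to 1915 of all genes passed, against 955 with every array. The related lists are set against the same 6.58% of all genes. Of 12 core clock genes 1 passed, Bhlhe40, a clock repressor, higher by 0.95 ± 0.31. Of 6 REV-ERB-repressed genes 1 passed, Insig2, higher by 1.2 ± 0.26. Of 9 genes of heme synthesis and breakdown 3 rose, Hmox1 by 0.83 ± 0.21, Blvrb by 0.68 ± 0.21 and Urod by 0.55 ± 0.17. Of 8 glucocorticoid-induced genes 1 passed, Dusp1, higher by 1.73 ± 0.33. Of 7 PAR bZIP targets 1 passed: Nr1i3, the nuclear receptor CAR and such a target in mouse, fell by 0.84 ± 0.22. Bmal1 was at 0.96 ± 0.35 (limma adjusted p = 0.0882). Of 7 Kupffer cell markers 0 passed with limma, where 6.58% of all genes did. The median of these markers was 0.46, against 0.01 over all genes, with 6 above 0 and 1 below. The 4 of smallest p were Cd5l at 0.76 ± 0.25, Adgre1 at 0.46 ± 0.18, Cd68 at 0.51 ± 0.22 and Marco at 0.57 ± 0.26. The mean of that list ran from 7.24 to 7.97 in IPC and from 6.86 to 8.01 in Sham, and its part in the result was not tested.

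In IPC+IPO livers Nfil3 was again the only member past the threshold against Sham. It rose by 0.92 ± 0.25 (1.9-fold, limma adjusted p = 0.0346), where 3.62% of all genes passed. That call was lost without any of IPC+IPO animals 31, 32, 33, 35, 36 or 40 or Sham animals 41, 42 or 44 to 47, at differences of 0.84 to 0.97. Without IPC+IPO animal 37 or Sham animal 43, 2 members passed. Over all genes 49 to 217 passed in the fits that lost the call, and 1826 and 2432 in those that gave 2, against 525 with every array. The Nfil3 call was lost with array spread as a covariate too, at 0.67 ± 0.25. Nr1d1, Nr1d2 and Upp2 were at 0.04 ± 0.39, -0.07 ± 0.29 and -0.09 ± 0.43, and Alas1 at 0.57 ± 0.25 (limma adjusted p = 0.147). Bmal1 was at 0.55 ± 0.35, and 0 of 12 core clock genes passed. Hmox1, 1 of 9 heme genes, and Dusp1, 1 of 8 glucocorticoid-induced genes, alone of their lists passed, higher by 0.77 ± 0.21 and 1.65 ± 0.33.

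In IRI livers no member passed against Sham with limma, and 0 of the 9 had an unadjusted p under 0.05, where 0.241% of all genes passed and 11.5% had such an unadjusted p. The median difference of the members was -0.01. Their 95% intervals were wide: that of Dbp ran from -0.92 to 1.23, that of Upp2 from -0.88 to 0.86 and that of Nfil3 from -0.14 to 0.87. Of 9 measured heme genes 0 passed with limma, where 0.241% of all genes did. Of these, 7 were above 0 and 2 below, with a median of 0.20. Urod, Blvrb and Hmox1 were at 0.59 ± 0.17, 0.62 ± 0.21 and 0.27 ± 0.21. The PAR bZIP target Cyp7a1 was at -0.97 ± 0.38 without passing.

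The interventions were also set against IRI, which had the same long ischemia. No member passed in IPC against IRI (0.0276% of all genes did), and 3 of 9 had an unadjusted p under 0.05 where 19.3% of all genes did: Nfil3 at 0.98 ± 0.24 (limma adjusted p = 0.116), Tef at -0.44 ± 0.17 and Dbp at -1.05 ± 0.51. Without IRI animal 1 or IPC animal 20, 1 member passed, where 252 and 7 of all genes did, against 4 with every array. In IPC+IPO against IRI 0 members and 0% of all genes passed, and at an unadjusted p under 0.05 stood 1 of 9 members, Nfil3 at 0.56 ± 0.24, where 21.5% of all genes did. Weighting arrays by their quality let 1 member pass in IPC against IRI and 2 in IPC+IPO against IRI. The share of all genes in the weighted fits is not given here, so nothing is read from these counts.

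IPO against IRI is the comparison in which the members had been noticed. Dbp averaged 6.69 ± 0.73 in IPO and 8.38 ± 1.31 in IRI (SD, n = 10 each), a difference of -1.69 ± 0.51 (SE). The other differences were -1.25 ± 0.41 for Upp2, -0.92 ± 0.36 for Nr1d1, -0.57 ± 0.27 for Nr1d2, -0.54 ± 0.17 for Tef, -0.43 ± 0.26 for Usp2 and -0.26 ± 0.30 for Por. Nfil3 was at 0.77 ± 0.24 and Alas1 at 0.62 ± 0.23. Dbp and Upp2 each had 8 IPO livers below every IRI liver, and for 0 members were the groups free of overlap, as they were for 0.062% of all genes. Of the 9 members 5 were past the threshold where 22.8% of all genes were, from which nothing is read since these values chose them. Without IRI animal 7 it was 0 and without IRI animals 8 or 9 or IPO animals 22 or 27 it was 3. Calls over all genes moved as well, to 395 without IRI animal 7 and to between 1744 and 1833 in the fits that gave 3, against 3307 with every array.

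IPO and IPC+IPO livers had the same cycles of postconditioning and differed in the earlier episode of ischemia. Of the 9 members 7 were lower in IPO than in IPC+IPO and 2 were higher, and these values too were known when the members were listed. Dbp averaged 6.69 ± 0.73 in IPO and 7.77 ± 1.60 in IPC+IPO (SD, n = 10 each), a difference of -1.08 ± 0.51 (SE). Upp2 averaged 5.97 ± 0.62 in IPO and 7.13 ± 1.52 in IPC+IPO, a difference of -1.17 ± 0.41. Nr1d1, Usp2, Nr1d2, Por and Tef were at -0.77 ± 0.36, -0.57 ± 0.26, -0.56 ± 0.27, -0.51 ± 0.30 and -0.43 ± 0.17, and Nfil3 and Alas1 at 0.22 ± 0.24 and 0.19 ± 0.23. Some IPC+IPO livers lay as low as the IPO livers: the lowest Dbp was 6.25 in IPC+IPO and 6.16 in IPO, and 3 IPC+IPO livers lay above every IPO liver. With limma 0 members and 0% of all genes passed, and at an unadjusted p under 0.05 stood 6 of 9 members and 3.32% of all genes; nothing is read from these counts.

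In the other direct comparisons of the intervention groups no member passed. In IPO against IPC and in IPC+IPO against IPC 0 members and 0% of all genes passed with limma, and 0 members had an unadjusted p under 0.05, where 4.06% and 1.62% of all genes did. The 95% interval of IPO against IPC ran from -1.65 to 0.38 for Dbp and from -0.69 to 0.27 for Nfil3, and that of IPC+IPO against IPC from -0.10 to 1.54 for Upp2 and from -0.90 to 0.05 for Nfil3. The interaction, which asks whether both interventions together differ from the sum of each against IRI, was 2.14 ± 0.71 for Dbp, 1.96 ± 0.58 for Upp2, 0.87 ± 0.24 for Tef and -1.2 ± 0.34 for Nfil3. It is the difference of IPC+IPO from IPO less that of IPC from IRI. The members were selected on the first of these, so the interaction values are a description too. With limma 0 members and 0% of all genes passed, 7 of 9 members and 20.3% of all genes had an unadjusted p under 0.05, and nothing is read from these counts.

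For no member did neighbours in the order of group means differ past the threshold (0 of 4 neighbouring pairs each). Dbp stood in the order IRI, Sham, IPC+IPO, IPC and IPO from high to low, and Tef, Nr1d2 and Upp2 in the order Sham, IRI, IPC+IPO, IPC and IPO. Nfil3 stood in the order IPC, IPO, IPC+IPO, IRI and Sham. Animals of a group differed more in these genes than in most others. The within-group SD was 1.19 for Dbp, which ranked 6 of 14506 genes, 0.97 for Upp2 (rank 15), 0.85 for Nr1d1 (rank 44) and 0.39 for Tef (rank 2585), against a median of 0.27. The share of a gene's variance that lay between groups was 46% for Nfil3, 30.8% for Tef, 23.8% for Upp2, 22.9% for Dbp and 13% for Nr1d2, against 15.6% for the median gene.

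The same animals stood apart in several members. IPO animal 30 was highest of its group in Dbp, Tef, Nr1d1, Upp2, Usp2 and Por and lowest in Nfil3. IPC+IPO animals 39 and 40 were the highest of their group in Dbp, Tef, Nr1d2, Usp2 and Alas1, and IPC animals 18 and 19 in Dbp, Tef, Upp2, Usp2 and Por. Sham animal 48 was lowest of its group in Dbp, Tef, Nr1d1, Nr1d2, Usp2 and Por and highest in Nfil3. By animal number, Dbp lay between 6.16 and 6.70 in IPO animals 21 to 28 and at 7.57 and 8.43 in animals 29 and 30. In IPC+IPO it lay between 6.25 and 6.82 in animals 31 to 35 and between 7.31 and 10.22 in animals 36 to 40. In IPC it lay between 6.34 and 7.18 in animals 11 to 17 and between 7.70 and 9.51 in animals 18 to 20. The high values in these groups thus sit at the end of each run of numbers. IRI animals 1 to 3 lay between 6.71 and 6.94 and animals 4 to 10 between 7.51 and 10.32, while in Sham animals 41 to 47 lay between 7.87 and 9.61 and animal 48 at 6.32. The labels say neither what the animal numbers stand for nor the hour of a biopsy, and the part of the order of handling or of the hour in any comparison of these cycling genes was not tested.

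The spread between animals of a group followed Bmal1, the clock activator that cycles opposite to Dbp. Bmal1 ran from 6.34 to 7.64 in IPO (median 7.44), from 4.42 to 7.51 in IPC+IPO (median 6.29), from 5.30 to 7.70 in IPC (median 7.0), from 4.96 to 7.47 in IRI (median 5.91) and from 5.21 to 7.08 in Sham (median 5.61). Animals 39 and 40 were lowest in IPC+IPO, animal 30 was lowest in IPO and animal 48 highest in Sham, the reverse of their places in Dbp. Group means were removed from each gene before the relation was computed over the 48 animals, so that differences between groups do not enter it. Permutations of the animals (100000, within groups, two-sided) gave the p-values, adjusted over the 9 members. They treat the animals of a group as exchangeable. The runs of Dbp by animal number given above were not modelled, so these p-values may be too small.

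Dbp had r = -0.89 and rho = -0.89 with Bmal1, with a permutation p of 1e-05 each, the smallest these permutations can give (adjusted 2.2e-05 and 1.8e-05). It held in each group, with r = -0.94 in IPO, -0.93 in IPC+IPO, -0.95 in IPC, -0.79 in IRI and -0.85 in Sham. Tef, Usp2 and Upp2 had r = -0.83, -0.82 and -0.77, and rho = -0.81, -0.77 and -0.77, with the same permutation p. Por had r = -0.61 and rho = -0.56 (permutation p = 6e-05 and 0.00018, adjusted 9e-05 and 0.00027). Nfil3 ran with Bmal1, at r = 0.63 and rho = 0.70 (permutation p = 4e-05 and 1e-05, adjusted 7.2e-05 and 1.8e-05), and its r was positive in all 5 groups.

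The REV-ERB genes followed Bmal1 less closely. Nr1d2 had r = -0.46 and rho = -0.42 (permutation p = 0.0026 and 0.0059, adjusted 0.0033 and 0.0076), and Nr1d1 r = -0.30 and rho = -0.32 (permutation p = 0.034 and 0.027, adjusted 0.038 and 0.03). In IRI their r was positive, at 0.30 and 0.22, while it was negative in the other groups. Alas1 did not pass, at r = -0.22 and rho = -0.09 (permutation p = 0.22 and 0.57), but its r was -0.45 with array spread removed and -0.59 without the 14 arrays of lowest spread. Without the animals farthest from the median of Bmal1, IPC+IPO animals 39 and 40, r was -0.86 for Dbp, -0.79 for Tef, -0.75 for Usp2, -0.71 for Upp2, -0.48 for Por, -0.33 for Nr1d2, -0.24 for Nr1d1, 0.68 for Nfil3 and 0.07 for Alas1.

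**Figure D3:**
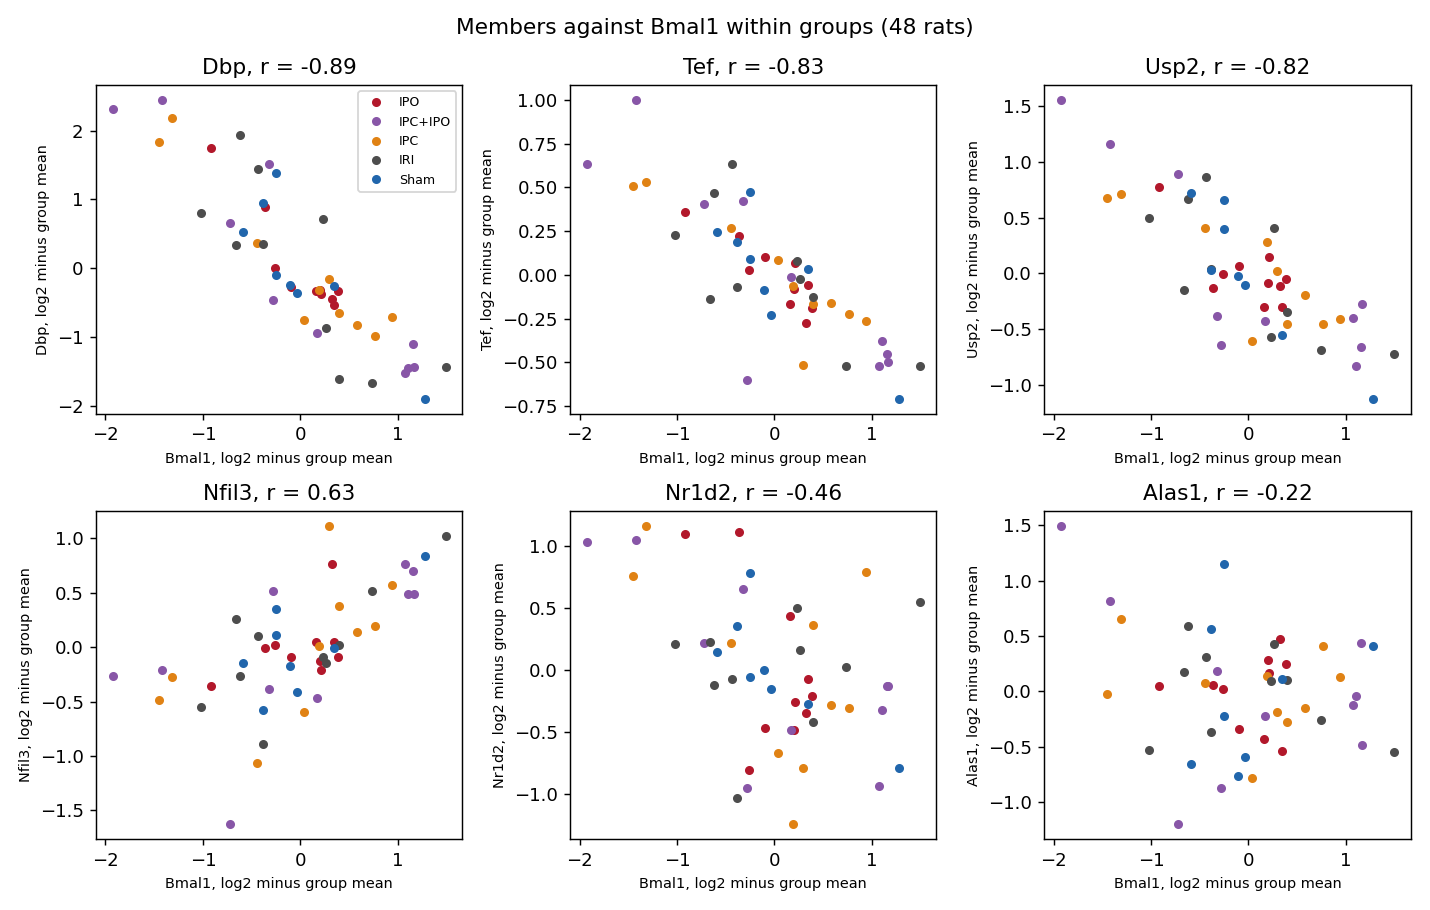
Log2 expression minus the group mean of Dbp, Tef, Usp2, Nfil3, Nr1d2 and Alas1 (vertical axes) against that of Bmal1 (horizontal axes), 1 point per rat and a colour per group. Dbp, Tef and Usp2 fall along Bmal1 (r = -0.89, -0.83 and -0.82), Nfil3 climbs (0.63), and Alas1 has r = -0.22.

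With the Bmal1 level of each animal as a covariate, a fit chosen after this relation had been seen, no member and no other gene passed in IPO against Sham. The difference was then 0.44 ± 0.29 for Dbp, 0.13 ± 0.33 for Upp2, 0.19 ± 0.19 for Usp2, -0.04 ± 0.12 for Tef, -0.08 ± 0.30 for Por, 0.49 ± 0.23 for Nfil3 and 0.98 ± 0.28 for Alas1. Bmal1 itself rose in IPO, so in this fit its difference and those of the members cannot be told apart. In IPC against Sham Nfil3 passed in this fit too, at 0.92 ± 0.21.

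The arrays also differed in the spread of their values, the SD of log2 values over all genes, which averaged 1.91 ± 0.065 in IPO, 1.86 ± 0.153 in IPC+IPO, 1.85 ± 0.0827 in IPC, 1.77 ± 0.111 in IRI and 1.72 ± 0.134 in Sham. With spread as a covariate no gene passed in IPO against Sham: Dbp was at -1.33 ± 0.61, Tef at -0.64 ± 0.20, Upp2 at -1.18 ± 0.49, Nfil3 at 0.79 ± 0.26, Nr1d2 at -1.01 ± 0.31 and Alas1 at 0.30 ± 0.24. Without the 14 arrays of lowest spread, which leaves 9 IPO and 2 Sham arrays, Alas1 was at -0.03 ± 0.34. In IPC against Sham Nfil3 passed with the spread covariate, at 1.11 ± 0.25.

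**Figure D4:**
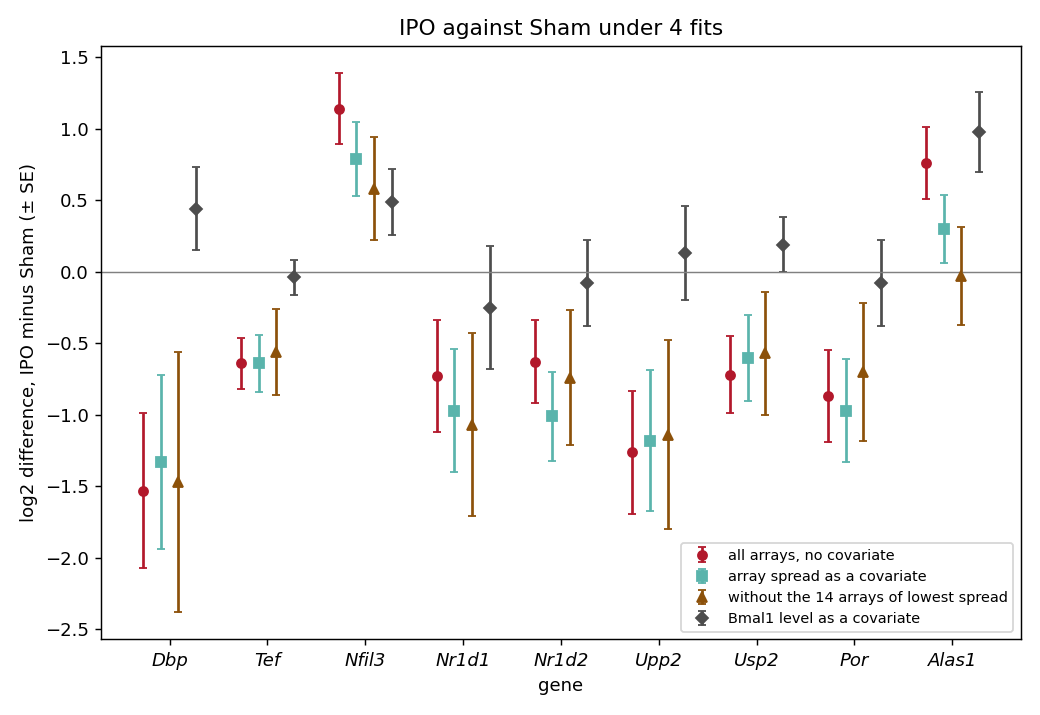
Log2 difference of IPO from Sham (vertical axis, bars are SE) for the 9 members under 4 fits: all arrays with no covariate, array spread as a covariate, without the 14 arrays of lowest spread, and Bmal1 as a covariate. Dbp is at -1.53 and -1.33 in the first and second of these and at 0.44 with Bmal1 as a covariate, while Alas1 is at 0.76, 0.30, -0.03 and 0.98.

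Markers of other liver cells were counted in IPO against Sham beside the members, where 15.4% of all genes rose and 7.76% fell. Of 7 Kupffer cell markers Cd5l alone passed, higher in IPO (median of the list 0.32, against 0.00 over all genes). Of 6 neutrophil markers S100a8 rose, by 0.80 ± 0.29, and S100a9 was at 0.81 ± 0.33 without passing (limma adjusted p = 0.0676). The other 4 were below 0, with Mpo at -0.28 ± 0.12, and the median of the list was -0.05. Of 7 stellate cell markers Lrat and Pdgfrb rose, and the median was -0.19. Col1a1, Col1a2 and Rgs5 were lower without passing, at -0.32 ± 0.12, -0.29 ± 0.12 and -0.24 ± 0.10. Of 6 hepatocyte markers Apoa1 fell, and the median was 0.09. With limma 0 of 3 endothelial, 0 of 4 cholangiocyte and 0 of 4 erythroid markers passed. The mean of the Kupffer list ran from 6.81 to 8.10 in IPO animals, against 6.86 to 8.01 in Sham animals. For the neutrophil list it was 4.57 to 5.46 in IPO and 4.36 to 5.15 in Sham, and for the stellate list 6.81 to 7.25 in IPO and 6.66 to 7.39 in Sham. The hepatocyte list ran from 12.14 to 12.38 in IPO and from 11.99 to 12.39 in Sham. These ranges overlapped in each list. The endothelial list ran from 7.16 to 7.80 in IPO and from 7.12 to 7.55 in Sham, the cholangiocyte list from 5.53 to 6.58 in IPO and from 5.60 to 6.20 in Sham, and the erythroid list from 7.21 to 9.05 in IPO and from 7.23 to 8.62 in Sham. Log2 array values have no zero, so no marker can be read as absent, and the part of these cells in the result was not tested.

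Genes most like 4 of the members were found by Pearson r over the 48 animals after group means were removed. Symbols that begin with LOC, RGD, Mir or Snor were left out, and the genes are given as a description. The values share the arrays and their spread. Dbp was likest to Tef (0.89), Per3 (0.87) and the steroid dehydrogenase gene Hsd17b2 (0.82), and least like Bmal1 (-0.89), the tubulin gene Tubb2a (-0.81) and Srms (-0.79). Upp2 was likest to Por (0.75), Usp2 (0.73) and Zfp354a (0.71), and least like Bmal1 (-0.77), Tubb2a (-0.71) and Tjp3 (-0.70). Nfil3 was likest to Rnf125 (0.80), Pdk4 (0.80), a brake on glucose oxidation, and Efna1 (0.79), and least like Fxyd2 (-0.72), Dbil5 (-0.69) and C3h20orf144 (-0.68). Alas1 was likest to Msmo1, Fdft1 and Hsd17b7 (0.78, 0.78 and 0.77), enzymes of cholesterol synthesis, and least like Syt8 (-0.65), Insl6 (-0.65) and Htr7 (-0.63).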

How the data were processed

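Liver RNA of 48 rats was measured on Affymetrix arrays, 1 per animal, and the 5 groups come from the sample titles. The authors deposited log2 values, 1 for each probe set and array, from RMA as run by Affymetrix Expression Console, per the submitters' processing notes; versions, filters and hybridization batches are not given in the sources used here. Of 29215 probe sets 15310 had 1 gene symbol, 323 several and 13582 none here; per gene the probe set of highest mean was used.

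All comparisons of groups used limma 3.58.1 (R 4.3.3; lmFit and eBayes, all 5 groups in 1 fit, no covariates), with Benjamini-Hochberg adjustment over 14506 genes; the pipeline was tested on simulated data. Animals are separate rats, and their number limits the precision. Correlations and permutations used numpy 2.4.6, with ranks and adjustment from scipy 1.17.1, and figures used matplotlib 3.10.9.

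The members, lists and tests were chosen with earlier results of these data known. All members are named. Of other lists, genes past the threshold in a comparison are named, or the 4 of smallest p where none passed, and Bmal1 always. For likeness, the 3 highest and 3 lowest r are named, with symbols that begin with LOC, RGD, Mir or Snor left out. The text gives a selection of these, and Per3 and S100a9 in IPO against Sham were named after their values were seen. Alternatives were other samples in the fit, variance models, array weights, probe sets, centring, quantile normalization, a filter on dim genes, array spread, and leaving out arrays; the Bmal1 covariate was added after the data were seen.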

Additional observations from a re-analysis of the deposited data

Results flagged for a closer look

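Of 45 sets of a member in a group, 3 held an animal far from the others. Its gap to the nearest animal over the group's range was above the critical value for the group's size. All 3 were in groups of 10 animals, for which that value was 0.466. Chance gives about 1 set in 20. Nfil3 in IPO animal 22 was highest at 9.46, with a ratio of 0.636. Usp2 in IPO animal 30 was highest at 6.55, with a ratio of 0.581, and the same animal was highest of its group in Dbp, Tef, Nr1d1, Upp2 and Por. Nfil3 in IPC+IPO animal 37 was lowest at 6.85, with a ratio of 0.484. Without IPC+IPO animal 37, 2 members rather than 1 passed in IPC+IPO against Sham, and of all 14506 genes 1826 rather than 525 did.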

How the results depend on the processing

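No paired analysis was possible because animals carry a different number in each group. The cause of the changes given here was not tested. Members past the threshold in IPO against Sham (7 as deposited) were 0 with array spread or Bmal1 as a covariate and 0 without the 14 arrays of lowest spread, and 2 to 8 with an array left out. In IPC against Sham (1) they were 2 with only the groups compared, 2 after renewed quantile normalization, 2 without the dimmest genes, 3 with array weights, 0 without the 14 arrays, and 1 to 2 with an array left out. In IPC+IPO against Sham (1) they were 0 with only the groups compared, with quantile normalization, with either covariate and without the 14 arrays, 2 with array weights, and 0 to 2 with an array left out. In IPO against IRI (5) they were 0 with either covariate and without the 14 arrays, and 0 to 7 with an array left out. Array weights gave 1 in IPC against IRI and 2 each in IPC+IPO against IRI and in the interaction, against 0. With an array left out IPC against IRI had 0 to 1. These counts of members are a description, since calls over all genes moved too where an array was left out. With Bmal1 as a covariate Dbp, Upp2 and Usp2 turned to 0.44, 0.13 and 0.19 in IPO against Sham and Dbp to 0.03 in IPO against IRI; without the 14 arrays Alas1 turned to -0.03 in IPO against Sham. The correlation of Nr1d2 with Bmal1 was -0.64 with the spread covariate; that of Alas1 was -0.41 with quantile normalization, -0.45 with the spread covariate, -0.59 without the 14 arrays and -0.29 to -0.05 with an array left out. The trended, robust variance model and median centring left all 25 counts and differences on their side of the threshold. Each member has 1 probe set, so taking the probe set of largest variance could not change a member's value. Depth has no counterpart here; the number of arrays limits precision.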
